A study of Homo sapiens with 29 samples.

Results

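Pladienolide B (PladB) was compared with its DMSO vehicle in the WT-FOXA1 line, an engineered derivative of the human prostate cancer cell line 22Rv1. The comparison rests on 4 of the 29 ATAC-seq libraries of the study, chosen by their labels: 2 libraries of PladB at 100 nM and 2 of DMSO at 0.1%, all given doxycycline (Dox) and all treated for 3 h. Cells of both groups overexpressed the splicing factor mutant Y36C-PHF5A and carried a Dox-inducible WT-FOXA1, so the mutant, the inducible factor and Dox were shared by treated and control cells. Their endogenous FOXA1 was still present, and the labels do not give the promoter, the number of clones, the length of Dox exposure, or whether replicates came from separate cultures. The p-values below therefore measure the spread between libraries, which may be technical. The rest of the study holds a WT-FOXA1 group given DMSO without Dox, a group of that line given the stereoprobe WX-02-23, a C258A-FOXA1 line on the same Y36C-PHF5A background, and parental 22Rv1 cells. The C258A-FOXA1 line, with Dox, received DMSO, WX-02-23 (20 µM) or PladB at 100 nM, and the parental cells received these 3 or WX-02-43 (20 µM) or PladB at 10 nM. All 25 of these libraries served for look-up, and the DMSO and 100 nM PladB libraries of both lines for tests.

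PladB is a macrolide that binds the SF3B1 and PHF5A interface of the spliceosome and blocks recognition of the intron branch point, so that unspliced and misspliced transcripts accumulate. The Y36 residue of PHF5A lies in that pocket, and its exchange for cysteine weakens the action of such ligands on splicing. FOXA1 is a pioneer factor of luminal prostate cells: it binds its sites in compact chromatin and opens enhancers that the androgen receptor then uses. ATAC-seq reads accessibility by letting a transposase cut open DNA, and a peak is a stretch where cut fragments pile up above the local background.

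The files hold a separate peak list for every library, on build hg19. The DMSO lists held 88140 peaks in replicate 1 and 85009 in replicate 2. The PladB lists held 71121 peaks in replicate 1 and 88735 in replicate 2. PladB replicate 1 was thus the shortest of the 4 lists and PladB replicate 2 the longest, and the PladB values lay on both sides of the DMSO values. The group means were 86574.5 ± 2214 peaks in DMSO (SD, n = 2) and 79928 ± 12455 peaks in PladB (SD, n = 2). Their difference of -6646.5 peaks was smaller than the spread between the PladB replicates (exact two-sided permutation p = 1 over 6 arrangements, which allow no p under 0.33), and without PladB replicate 1 it was 2160.5 peaks.

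The bases covered by peaks followed the same order, at 32.1 and 30.6 Mb in the DMSO lists, 25.3 Mb in PladB replicate 1 and 32.2 Mb in PladB replicate 2. The peaks themselves were alike in the 4 lists. Their median width was 299 and 297 bp in DMSO and 295 and 297 bp in PladB. The median fold enrichment over the local background, the authors' own value for each peak, was 7.25 and 7.33 in DMSO and 7.27 and 7.22 in PladB. The shortfall of PladB replicate 1 remained at a q-value of 1e-05 or below, a limit that kept most peaks of every list. The lists then held 80308 and 77902 peaks in DMSO, 65164 in PladB replicate 1 and 80981 in PladB replicate 2. It was smaller at a fold of at least 6, with 58517 and 57028 peaks in DMSO, 50040 in PladB replicate 1 and 58544 in PladB replicate 2.

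Read totals were not given, and the background level used by the peak caller served as a relative depth. It was 0.869 and 0.844 reads per base in DMSO, 0.789 in PladB replicate 1 and 0.939 in PladB replicate 2, so the 4 lists had the same order by background as by length. The part of this background in the list lengths was not tested. Over all 29 libraries the lists held 62832 to 98193 peaks at a background of 0.546 to 1.502 reads per base. The lowest summit called in each of the 4 WT-FOXA1 libraries held 6 reads, and sites with fewer reads were not detectable.

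**Figure D1:**
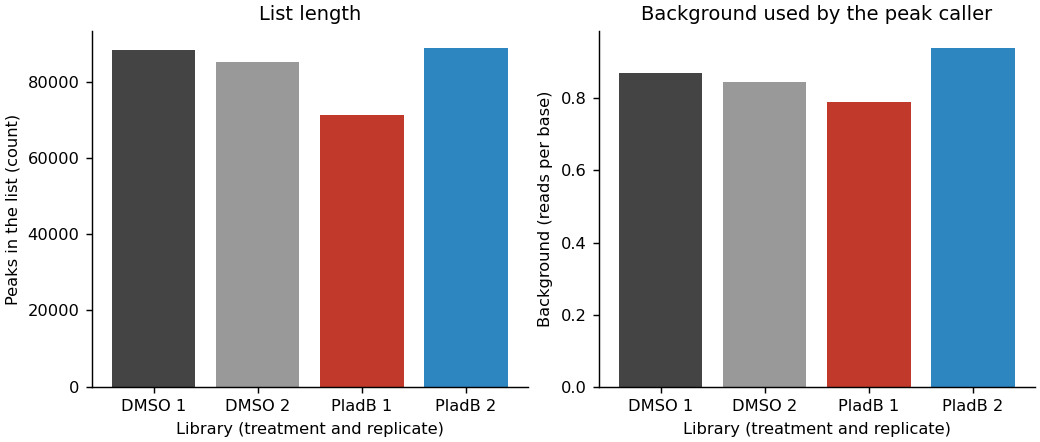
Bars give the number of peaks (left axis panel, count) and the background in reads per base (right axis panel) of the 4 WT-FOXA1 libraries, 1 bar per library. PladB replicate 1 had the fewest peaks (71121) and the lowest background (0.789), and PladB replicate 2 the most peaks (88735) and the highest background (0.939).

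Most of the accessible chromatin was present under both treatments. Merging the overlapping peaks of the 4 lists gave 106726 regions, and 58798 of them (55.1%) held a peak in all 4 libraries. A further 12914 regions held a peak in exactly 3 libraries, 12890 in exactly 2 and 22124 in 1 alone. The shared regions were the broad and strong ones, with a median width of 436 bp and a median fold of 8.91 and 8.81 in DMSO, 8.10 in PladB replicate 1 and 8.85 in PladB replicate 2.

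The strongest shared regions, ranked by the authors' p-value and chosen after their values were seen, had close values in the 4 libraries. At chr1:91852705-91853229 the fold was 25.6 and 25.2 in DMSO and 26.1 and 26.3 in PladB. At chr11:85194929-85195376 it was 27.9 in both DMSO libraries, 27.7 in PladB replicate 1 and 29.9 in PladB replicate 2. At chr8:70602209-70602701 it was 26.9 and 27.8 in DMSO and 28.5 and 27.7 in PladB. The folds at these sites lay close, with PladB replicate 2 above the other 3 libraries at the site on chromosome 11. The wide region chr1:121484035-121485486, of 1452 bp, had folds of 10.3 and 10.5 in DMSO and 10.1 and 9.98 in PladB. The first 4 of these regions were held by all 10 other engineered libraries and by 0 of the 15 parental ones. The fifth, chr1:244211229-244212004, was held by all 25 other libraries, with folds of 19.7 and 19.8 in DMSO and 19.7 and 18.5 in PladB. Of the 8063 shared regions in the top decile by p-value, 38 (0.471%) had no peak in any parental list, and 35 of the 38 were held by all 10 other engineered libraries. The sources used here do not give whether the parental and engineered lists were filtered alike. The lists did differ in their sequences: no parental list held a peak outside chromosomes 1 to 22, X and Y, and every engineered list did. Parental DMSO replicate 1 had 91632 peaks with or without other sequences, and WT-FOXA1 DMSO replicate 1 had 88142 with them and 88140 without. Whether a filter or a difference in open chromatin lay behind these sites was not tested.

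Regions were called lost with PladB when both DMSO libraries and neither PladB library held a peak, and gained in the reverse case. A lost region is one without a called peak, and it may still be open below the detection limit. As deposited, 3304 regions were lost, 3.10% of the 106726 regions and 4.63% of the 71406 held by both DMSO libraries. In the same lists 1014 regions were gained, 0.950% of all regions and 1.60% of the 63422 held by both PladB libraries. Lost regions were thus more frequent than gained ones in the lists as deposited. Leaving out 1 library loosens the rule and raises the counts: to 9064 lost and 3147 gained without DMSO replicate 1, 10741 and 2599 without DMSO replicate 2, and 11283 and 2622 without PladB replicate 2. Without PladB replicate 1 the order turned, to 4762 lost and 8867 gained.

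The excess of lost regions nearly ended when the lists had the same length. Lists of the same length hold similar numbers of regions, so losses and gains must then roughly balance. A net change in the number of open regions could therefore not show in this comparison. With each list cut to its strongest 71121 peaks by p-value, the length of PladB replicate 1, the 4 lists merged into 89607 regions, of which 51996 (58.0%) were held by all 4. At equal length 1972 regions were lost (2.20% of all, 3.34% of the 58989 held by both DMSO libraries). The gained regions then numbered 1715 (1.91% of all, 2.93% of the 58598 held by both PladB libraries). No test was made per region, since 2 libraries against 2 allow no permutation p under 0.33, and both counts are descriptions.

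**Figure D2:**
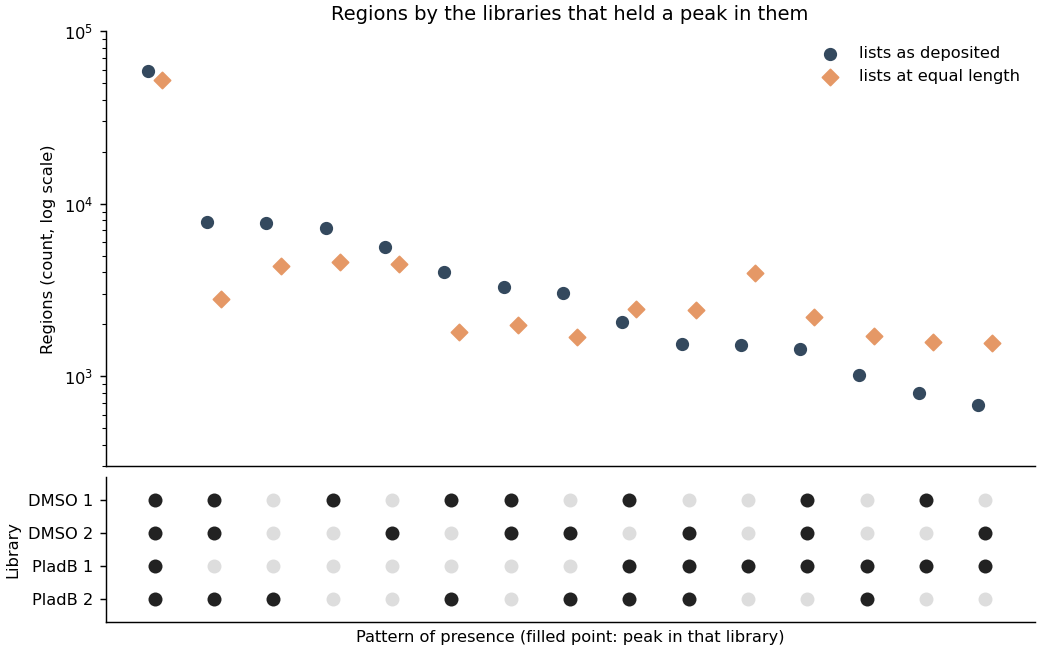
Points give the number of regions (vertical axis, count on a log scale) for each of the 15 patterns of presence over the 4 libraries, circles for the lists as deposited and diamonds for lists of equal length. Filled points below mark the libraries that held a peak. Regions of all 4 libraries lead with 58798 as deposited and 51996 at equal length. The points for regions of the DMSO pair alone and of the PladB pair alone lie apart as deposited (3304 and 1014) and close at equal length (1972 and 1715).

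The counts differed widely between the 2 PladB replicates. PladB replicate 1 lacked 11174 of the 71406 regions of both DMSO libraries, 15.6% of them and 10.5% of all regions. PladB replicate 2 lacked 4738, which is 6.64% of them and 4.44% of all. Of these regions 7870 were missing from PladB replicate 1 alone and 1434 from PladB replicate 2 alone. In the other direction, PladB replicate 1 held 2526 regions found in neither DMSO library (3.72% of its regions, 2.37% of all). PladB replicate 2 held 8786 such regions (10.2% of its regions, 8.23% of all).

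At equal length the PladB replicates drew together, as lists of the same length in large part must. The regions of both DMSO libraries missing from PladB replicate 1 then numbered 4777 (8.10% of them, 5.33% of all), and those missing from PladB replicate 2 numbered 4188 (7.10%, 4.67% of all). Regions in neither DMSO library numbered 5680 in PladB replicate 1 (8.36% of its regions, 6.34% of all) and 6076 in PladB replicate 2 (8.77%, 6.78% of all). PladB replicate 1 still lacked somewhat more of the DMSO regions than PladB replicate 2 did.

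Set against the difference between the DMSO replicates, PladB replicate 2 did not stand apart. Of the regions of DMSO replicate 1, 16.5% were missing from DMSO replicate 2, 15.0% from PladB replicate 2 and 26.2% from PladB replicate 1. Of the regions of DMSO replicate 2, 13.2% were missing from DMSO replicate 1, 13.4% from PladB replicate 2 and 24.1% from PladB replicate 1. With 71121 peaks in each list the shares for DMSO replicate 1 were 15.0% in the other DMSO library, 14.9% in PladB replicate 2 and 16.1% in PladB replicate 1. Those for DMSO replicate 2 were 14.7%, 14.8% and 15.8%.

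The regions held by exactly 2 libraries show the same order. As deposited, 4028 were held by DMSO replicate 1 and PladB replicate 2 and 3055 by DMSO replicate 2 and PladB replicate 2. PladB replicate 1 shared 805 with DMSO replicate 1 alone and 684 with DMSO replicate 2 alone. The DMSO pair (3304) and the PladB pair (1014) thus lay within the range of the pairs that cross treatments. With lists cut to 71121 peaks the DMSO pair had the most regions, 1972, ahead of 1807 for DMSO replicate 1 with PladB replicate 2 and 1715 for the PladB pair. The other 3 pairs then held 1554 to 1698 regions.

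The Jaccard index of 2 lists divides the bases that both cover by those that at least 1 covers, and it gave the same picture. It was 0.692 for the DMSO pair, 0.692 on average for PladB replicate 2 with DMSO and 0.662 for PladB replicate 1 with DMSO. The PladB pair itself had an index of 0.660, below that of PladB replicate 2 with either DMSO library. With equal lists the values were 0.704 for the DMSO pair, 0.707 for PladB replicate 2 with DMSO, 0.685 for PladB replicate 1 with DMSO and 0.690 for the PladB pair. As deposited, neither PladB library was on average closer to the other PladB library than to DMSO. At equal length this held for PladB replicate 2 and not for PladB replicate 1.

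Missing regions were weak peaks. In the weakest decile of DMSO replicate 1 by p-value, 55.8% of the regions were missing from DMSO replicate 2, 74.0% from PladB replicate 1 and 51.8% from PladB replicate 2. Above its 50th percentile, among 43400 regions, 309 (0.712%) were missing from DMSO replicate 2, 1056 (2.43%) from PladB replicate 1 and 237 (0.546%) from PladB replicate 2. Among its strongest 17537 regions, those above the 80th percentile, 0 were missing from any of the other 3 libraries. For lists of equal length the shares missing above the 50th percentile came to 0.519% for DMSO replicate 2, 0.731% for PladB replicate 1 and 0.544% for PladB replicate 2.

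Among the regions of DMSO replicate 2, PladB replicate 1 again lacked the most. Above the 50th percentile, where it had 41746 regions, 0.453% were missing from DMSO replicate 1, 1.89% from PladB replicate 1 and 0.379% from PladB replicate 2. At equal length these became 0.489%, 0.600% and 0.471%. Nor did PladB libraries hold strong regions that DMSO lacked: of the 14111 regions above the 80th percentile of PladB replicate 1 and the 17667 of PladB replicate 2, 0 were missing from either DMSO library.

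**Figure D3:**
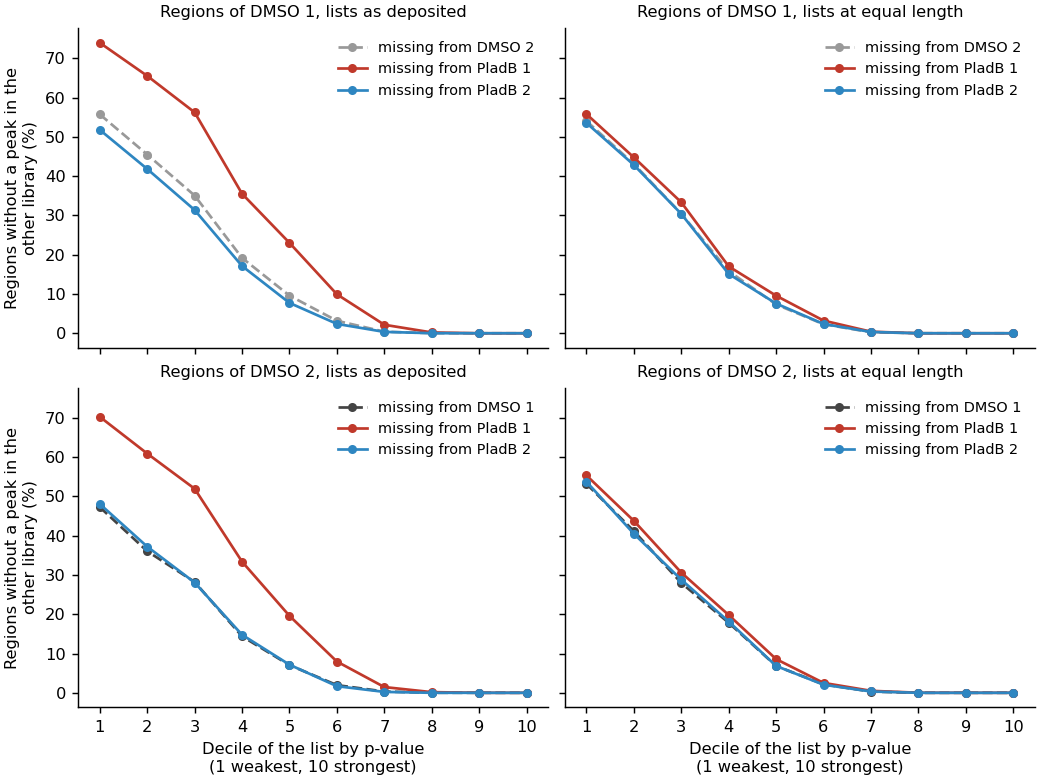
Lines give the percent of regions of DMSO replicate 1 (top) or DMSO replicate 2 (bottom) that held no peak in another library (vertical axis), by decile of the list from the weakest to the strongest peaks (horizontal axis), for lists as deposited (left) and at equal length (right). As deposited, PladB replicate 1 lies above the other lines (74.0% against 55.8% and 51.8% in the weakest decile of DMSO replicate 1). At equal length the lines nearly coincide, and all reach 0 in the strongest deciles.

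Lost and gained regions were alike in strength and width. The lost regions had a median width of 248 bp and a median fold of 5.35 and 5.42 in the DMSO libraries. The gained regions had a median width of 237 bp and a median fold of 5.35 in PladB replicate 1 and 5.18 in PladB replicate 2. The lost regions lay at a median percentile of 18.6 in DMSO replicate 1 and 17.2 in DMSO replicate 2, where 0 is the weakest peak of a list and 100 the strongest. The gained ones lay at 12.9 and 18.9 in the PladB lists. Above the 50th percentile there were 77 of the lost regions in DMSO replicate 1 and 52 in DMSO replicate 2, and 6 and 15 of the gained regions in the PladB lists.

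The share of regions lost fell steeply with width. Of the 4862 regions of both DMSO libraries narrower than 250 bp, 1688 (34.7%) were lost, with 65.9% missing from PladB replicate 1 and 43.1% from PladB replicate 2. Between 250 and 350 bp, 6.03% were lost, and between 350 and 500 bp, 1.16%. Of the 20329 regions between 500 and 1000 bp, 18 were lost (0.0885%), and of the 3284 of at least 1000 bp, 0. Gained regions had the same shape, with 20.8% of the regions of both PladB libraries under 250 bp and 0.0249% of those between 500 and 1000 bp. Merging widens a region that several libraries hold, so width and presence are not independent measures.

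Most lost and gained regions were open in other 22Rv1 libraries. The median lost region was held by 10 of the 25 other libraries, the median gained region by 11, and the median region of both DMSO libraries by 25. No other library held 244 of the lost regions (7.39%) and 54 of the gained ones (5.33%), against 532 (0.745%) of the regions of both DMSO libraries. The median distance to the nearest region of all 4 libraries was 14040 bp for lost regions, 11470 bp for gained regions and 11360 bp for the regions of both DMSO libraries.

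Individual regions were named by rank among the 927 lost and 497 gained both as deposited and at equal length. The lost region of highest rank, chr6:145140900-145141145, had a fold of 9.40 in DMSO replicate 1 and 10.6 in DMSO replicate 2 and no peak in either PladB library. It was held by 21 of the 25 other libraries, among them 3 of 3 parental and 2 of 2 C258A-FOXA1 libraries with PladB at 100 nM. The next, chr6:105130982-105131286, had folds of 9.10 and 9.22 in DMSO and was held by 16 of the others. The region chr11:108105842-108106237 had folds of 9.02 and 9.22 in DMSO and was held by 19, including 15 of 15 parental libraries. These regions were thus held by most other libraries, and by at least 1 library of each other PladB group. The second was held by 1 of 3 parental libraries of PladB at 10 nM and 2 of 3 at 100 nM. It was held by 1 of 2 C258A-FOXA1 libraries with PladB.

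The other lost regions named by this rule were chr5:145076724-145077188, chr2:111826045-111826323, chr10:127584277-127584619, chr6:121512114-121512414, chr6:33195466-33195809, chr4:1035142-1035350 and chr3:131163126-131163382. Over all 10 the fold was 5.13 to 9.40 in DMSO replicate 1 and 4.63 to 10.6 in DMSO replicate 2, and the mean percentile 49.8 to 62.2. The region on chromosome 10 was held by 24 of the 25 other libraries and lay 67 bp from a region of all 4 libraries. The region chr6:121512114-121512414 was held by 5 other libraries, all of the C258A-FOXA1 line, and by 0 of the 15 parental ones. In the C258A-FOXA1 line, 4 of the 10 named lost regions were held by both PladB libraries and 1 by neither, against 5 and 0 for its DMSO libraries. In parental cells 6 were held by all 3 libraries of PladB at 100 nM and 1 by none, against 5 and 1 for DMSO.

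The gained region of highest rank, chr9:70648522-70648756, had a fold of 5.58 in PladB replicate 1 and 4.83 in PladB replicate 2 and no peak in either DMSO library. It was held by 21 of the 25 other libraries, 3 of 3 parental DMSO libraries among them. The region chrX:138385932-138386286 had folds of 8.94 and 8.16 in PladB. It was held by 8 other libraries, all engineered, including 2 of 2 C258A-FOXA1 libraries with DMSO, and by 0 parental ones. The gained region chr11:110039880-110040144, with folds of 8.04 and 7.28 in PladB, was likewise held by 7 other libraries, all engineered. Each of the 10 named gained regions was held by 7 to 23 of the other libraries, with a median of 17.

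The other named gained regions were chr8:95912529-95912719, chr6:75940249-75940568, chr1:109505319-109505515, chr17:38191397-38191626, chr14:94952606-94952853, chr20:62541064-62541309 and chr11:106908316-106908590. Over all 10 the fold was 5.29 to 8.94 in PladB replicate 1 and 4.65 to 8.25 in PladB replicate 2, and the mean percentile 43.6 to 53.0. In parental cells 7 of the 10 were held by all 3 DMSO libraries and 3 by none, against 3 and 2 for PladB at 100 nM. In the C258A-FOXA1 line 5 were held by both DMSO libraries and 1 by neither, against 4 and 3 for its PladB libraries.

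The 5 strongest regions missing from PladB replicate 1 alone outranked the regions missing from both PladB libraries. They were drawn from a larger pool, which by itself favours higher top ranks. Called both as deposited and at equal length, the pools held 2805 regions missing from PladB replicate 1 alone, 598 missing from PladB replicate 2 alone and 927 lost regions. The region chr6:151696033-151696326 had a fold of 11.4 and 11.1 in DMSO, 10.3 in PladB replicate 2 and no peak in PladB replicate 1. All 25 other libraries held it. The regions chr22:41972909-41973232, chr8:22001208-22001486 and chr8:95449507-95449805 were also missing from PladB replicate 1 alone among the 29 libraries. The region chr1:100337706-100338230 had a fold of 9.41 and 12.0 in DMSO and 10.2 in PladB replicate 2, and was held by 7 other libraries, none of them parental.

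In the reverse case, chr22:47331739-47332028 had a fold of 11.5 and 7.26 in DMSO, 9.48 in PladB replicate 1 and no peak in PladB replicate 2. The regions chr10:5136399-5136631 and chr3:188012714-188013167 were missing from PladB replicate 2 alone among the 29 libraries. The region chr19:45953624-45953897 was held by 24 other libraries and chr7:9304096-9304346 by 14. The mean percentile of these 5 regions was 52.9 to 58.0, against 64.2 to 67.1 for the 5 missing from PladB replicate 1 alone and 49.8 to 62.2 for the 10 named lost regions.

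The missing regions were spread over all chromosomes. On chromosomes 1 to 22 and X, 3.01% (chromosome 22) to 6.20% (chromosome 13) of the regions of both DMSO libraries were lost as deposited, with a median of 4.70%. The share missing from PladB replicate 1 ranged from 10.7% on chromosome 19 to 20.1% on chromosome 13. For PladB replicate 2 the range was 4.42% on chromosome 19 to 8.77% on chromosome 13. The DMSO replicates differed from each other in a similar order, with 10.8% of the regions of DMSO replicate 1 missing from DMSO replicate 2 on chromosome 19 and 19.9% on chromosome 4.

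Lost regions outnumbered gained ones on 23 of 23 chromosomes as deposited and on 16 at equal length. The share missing from PladB replicate 1 exceeded that from PladB replicate 2 on 23 as deposited and on 22 at equal length, where it ranged from 4.89% to 12.0% for PladB replicate 1 and from 3.96% to 9.59% for PladB replicate 2. Of these 23 chromosomes, chromosome 13 had the highest share lost as deposited and at equal length, at 6.20% and 5.04%.

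**Figure D4:**
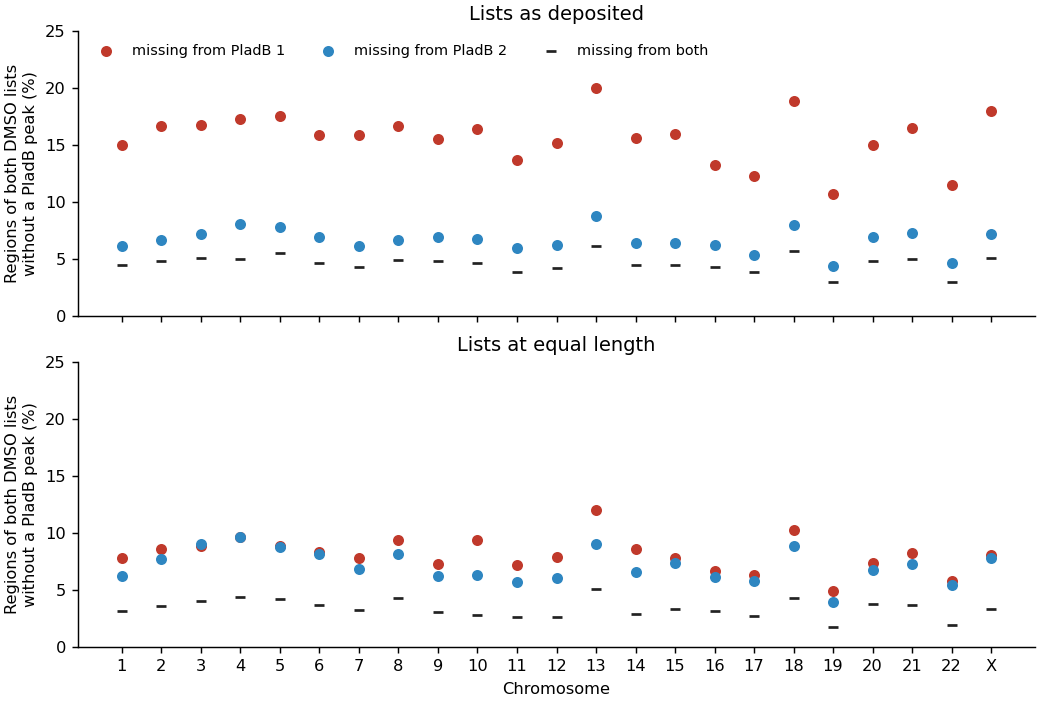
Points give, for each chromosome (horizontal axis), the percent of regions of both DMSO libraries without a peak in PladB replicate 1 (red), in PladB replicate 2 (blue) or in both (dashes), for lists as deposited (top) and at equal length (bottom). As deposited every red point lies above the blue one (10.7% to 20.1% against 4.42% to 8.77%), and at equal length they lie close together.

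The lost and gained sets were next looked up in 10 libraries that had no part in choosing them, to ask whether the same regions moved with PladB in the other lines. In the C258A-FOXA1 line, 44.8% and 47.7% of the lost set held a peak in the DMSO libraries and 29.5% and 31.9% in the PladB libraries. The reference, all regions of both WT-FOXA1 DMSO libraries, went from 89.0% and 90.4% to 83.2% and 84.7%. In parental cells the lost set went from 47.9%, 52.3% and 49.2% in DMSO to 41.0%, 43.8% and 40.8% with PladB. The reference there was 82.1% to 83.6% in DMSO and 78.5% to 80.3% with PladB. In both lines every PladB library lay below every DMSO library.

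The gained set fell as well. In the C258A-FOXA1 line it went from 45.8% and 51.0% in DMSO to 35.2% and 40.7% with PladB, and in parental cells from 50.4%, 55.1% and 52.1% to 42.7%, 47.6% and 43.2%. Relative to the reference, the lost set fell by 7.22 percentage points on the mean of the lines, and it fell by 9.82 in the C258A-FOXA1 line and fell by 4.63 in parental cells. The gained set fell by 5.60 points on the mean, and it fell by 6.06 in the C258A-FOXA1 line and fell by 5.14 in parental cells. For each set the exact permutation test (two-sided, 120 arrangements) gave p = 0.0167, its lowest possible value, which adjustment by the Benjamini-Hochberg method for 2 sets left at 0.0167. The references were not matched for strength. Their median percentiles were 58.9 and 57.3 in DMSO (lost set: 18.6 and 17.2) and 54.4 and 63.8 in PladB (gained set: 12.9 and 18.9). The test therefore cannot separate these regions from weak peaks in general. With summits extended by 100 bp to either side in place of whole peaks, the gained set changed by -1.24 points (exact permutation p = 0.15).

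Neither set passed the test at equal list length. The lost set then changed by -1.28 points (exact two-sided permutation p = 0.317, adjusted 0.633), with -3.52 in the C258A-FOXA1 line and 0.957 in parental cells. The gained set changed by -0.0636 points (exact two-sided permutation p = 0.95), with 1.18 and -1.30. The PladB lists of these lines were shorter than their DMSO lists, at 75942.5 ± 1964 against 85715.5 ± 2058 peaks (SD, n = 2 each) in the C258A-FOXA1 line and 84546.7 ± 2558 against 94297.7 ± 3449 (SD, n = 3 each) in parental cells. Their background was lower too, at 0.567 ± 0.029 against 0.808 ± 0.082 reads per base in the C258A-FOXA1 line and 0.705 ± 0.038 against 0.935 ± 0.062 in parental cells.

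**Figure D5:**
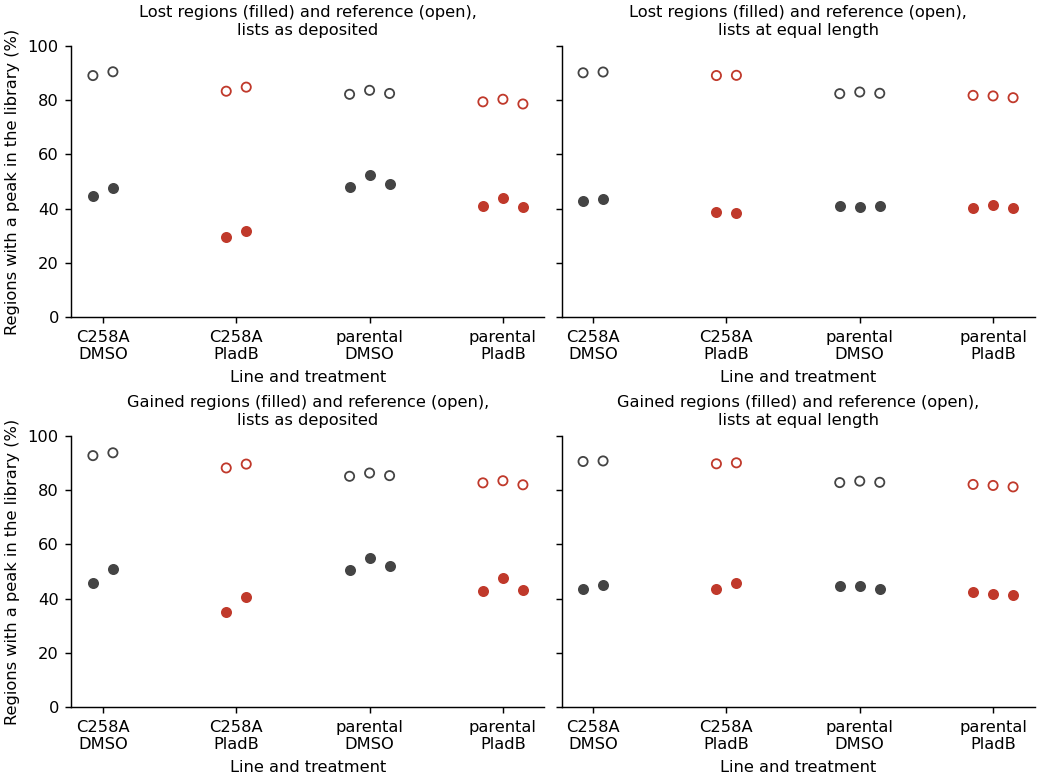
Filled points give the percent of the lost (top) and gained (bottom) regions with a peak in each library of the C258A-FOXA1 line and of parental cells (vertical axis), open points the same for the reference regions, in grey for DMSO and red for PladB at 100 nM, for lists as deposited (left) and at equal length (right). As deposited the filled points fall with PladB for both sets (44.8% and 47.7% to 29.5% and 31.9% for lost regions in C258A-FOXA1). At equal length the change relative to the reference is -1.28 points for lost and -0.0636 points for gained regions.

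In the reverse look-up of the lists as deposited, the values were lowest in PladB replicate 1. Of the 4624 regions lost with PladB in the C258A-FOXA1 line, 52.9% and 50.4% held a peak in the WT-FOXA1 DMSO libraries, 29.8% in PladB replicate 1 and 52.0% in PladB replicate 2. The reference, all 69052 regions of both C258A-FOXA1 DMSO libraries, stood at 90.4% and 89.7% in DMSO, 82.3% in PladB replicate 1 and 91.0% in PladB replicate 2. Of the 792 gained in that line, 52.2% and 47.2% held a peak in DMSO, 28.7% in PladB replicate 1 and 54.8% in PladB replicate 2. The reference for these, all regions of both C258A-FOXA1 PladB libraries, stood at 94.3% and 93.7% in DMSO, 88.3% in PladB replicate 1 and 95.0% in PladB replicate 2. Both sets and both references were low in PladB replicate 1 alone.

 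Cut to equal length, the C258A-FOXA1 lost set numbered 2237, with 44.3% and 45.6% in DMSO, 39.2% in PladB replicate 1 and 41.0% in PladB replicate 2. Both PladB values then lay below both DMSO values, while the reference was 89.6% and 90.2% in DMSO and 89.1% and 89.9% in PladB. The C258A-FOXA1 gained set, of 1609 regions at equal length, went both ways, with 44.2% and 42.3% in DMSO, 42.1% in PladB replicate 1 and 46.7% in PladB replicate 2.

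Of the 1972 regions lost with PladB at 100 nM in parental cells, 34.9% and 32.9% held a peak in the WT-FOXA1 DMSO libraries, 23.2% in PladB replicate 1 and 36.7% in PladB replicate 2. The reference, all regions of the 3 parental DMSO libraries, stood at 82.4% and 80.2% in DMSO, 72.9% in PladB replicate 1 and 82.3% in PladB replicate 2. At equal length this set held 39.8% and 39.0% in DMSO and 38.6% and 40.5% in PladB, and the groups overlapped.

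Few regions were lost in more than 1 line. Over 147496 regions merged from the lists of all 3 lines, 3114 were lost in the WT-FOXA1 line (2.11%), 4624 in the C258A-FOXA1 line (3.14%) and 1972 in parental cells (1.34%). In parental cells the rule asked for a peak in all 3 DMSO libraries and in none of 3 PladB libraries. This is stricter than in the engineered lines and lowers the parental counts and overlaps by construction, here and at equal length. The WT-FOXA1 and C258A-FOXA1 lines shared 244 lost regions, 7.84% of the former and 5.28% of the latter, where 2.47% of the regions of both WT-FOXA1 DMSO libraries were lost in C258A-FOXA1. These reference shares were not matched for strength, and weak peaks go missing more often. The overlaps therefore cannot be separated from those of weak peaks in general. A further 39 regions lost in WT-FOXA1 were gained in C258A-FOXA1. Gained regions numbered 929 in WT-FOXA1 (0.630%) and 792 in C258A-FOXA1 (0.537%), with 12 in common. More of the WT-FOXA1 gained regions, 56 (6.03%), were lost in C258A-FOXA1 than were gained there (1.29%). Over all regions, too, more were lost in C258A-FOXA1 (3.14%) than gained (0.537%). Of the regions of both WT-FOXA1 PladB libraries, 0.297% were gained in C258A-FOXA1. In parental cells 224 regions were gained (0.152%), and 1 of them was gained in WT-FOXA1.

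With lists of equal length, 118440 regions remained, of which 1908 were lost in WT-FOXA1 (1.61%), 2237 in C258A-FOXA1 (1.89%) and 772 in parental cells (0.652%). The engineered lines shared 90 lost regions, 4.72% of the WT-FOXA1 and 4.02% of the C258A-FOXA1 set. Of the regions of both WT-FOXA1 DMSO libraries, 1.155% were lost in C258A-FOXA1, again a share not matched for strength. Gained regions then numbered 1610 in WT-FOXA1 (1.36%), 1609 in C258A-FOXA1 (1.36%) and 470 in parental cells (0.397%). The engineered lines shared 60 gained regions, 3.73% of each set. Of the regions of both WT-FOXA1 PladB libraries, 0.766% were gained in C258A-FOXA1. In the opposite directions, 54 regions lost in WT-FOXA1 were gained in C258A-FOXA1 and 56 gained in WT-FOXA1 were lost there. WT-FOXA1 and parental cells shared 13 lost regions (0.681% of the WT-FOXA1 set) and 10 gained regions (0.621%). Of the regions of both WT-FOXA1 DMSO libraries, 0.391% were lost in parental cells. Of those of both PladB libraries, 0.163% were gained there. In the opposite directions, 10 regions lost in WT-FOXA1 were gained in parental cells and 14 gained in WT-FOXA1 were lost there.

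All 3 lines lost 3 regions, listed here after their values were seen. They were chr2:85672860-85673357 with folds of 3.83 and 4.56 in the WT-FOXA1 DMSO libraries, chr5:142950531-142951201 with 5.74 and 5.66, and chr7:14808907-14809233 with 4.84 and 5.10. All 3 were weak peaks, and at equal length 0 regions were lost in all 3 lines.

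Within the WT-FOXA1 line, the lost set held a peak at 28.0% ± 2.1 (SD, n = 2) of its regions in DMSO without Dox and the gained set at 30.4% ± 3.7 (SD, n = 2). The references, all regions of both DMSO and of both PladB libraries, stood at 77.3% and 81.5% there. These lists were short, at 68504.5 ± 1852 peaks (SD, n = 2). The change in list length with PladB was -9773 peaks in the C258A-FOXA1 line against -6646.5 in WT-FOXA1. The difference of 3126.5 peaks between the lines was within the spread between replicates (exact two-sided permutation p = 0.944 over 36 arrangements, which allow no p under 0.056), and without WT-FOXA1 PladB replicate 2 it turned to -5680.5.

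Within the 58798 regions of all 4 libraries, the position of the strongest summit moved little. Summits lay over 100 bp apart in 10.2% of these regions between the DMSO libraries and in 10.3% between the PladB libraries. Between a DMSO and a PladB library the share was 10.7% and 10.6% for PladB replicate 1 and 10.2% and 10.0% for PladB replicate 2. The median distance was 27 to 30 bp in every pair. The shares between treatments thus lay on both sides of those within a treatment.

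No gene, promoter or motif is named at these regions and no luminal marker gene was checked, since no annotation of hg19 was used here.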

How the data were processed

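ATAC-seq libraries of 22Rv1 cells were aligned with Bowtie2 and peaks called with MACS2 on hg19, per the submitters' processing notes. No source used here gives versions, duplicate removal or read shifting. The authors deposited 1 peak list per library, with none pooled. Each deposited list gives, per peak, a score, a fold enrichment (ratio) over the local background, the −log10 of the p-value and of the q-value, and the summit's distance from the peak start. The authors' q-value limit was 0.01, and these values were used only within a list.

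Other sequences than chromosomes 1 to 22, X and Y were left out. Overlapping peaks of the 4 lists were merged into regions, and a library held a region with at least 1 bp of overlap. Equal length meant the strongest 71121 peaks of each list by −log10 p, with ties broken by q-value, then fold, then position. For the look-up, the lists of the other lines were cut to the same length. Regions were merged anew from 14 lists for the overlap between lines. Background (reads per base) came from the even steps of the deposited fold values (tolerance 0.0001), on which 14.3% to 25.2% of the peaks of a list lay. It is only a relative depth.

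Groups and replicate numbers came from the labels. List lengths and set shares were compared by exact two-sided permutation over libraries, with line or treatment as stratum, and Benjamini-Hochberg adjustment over 2 sets. The named regions are the 10 lost and 10 gained of highest mean percentile of −log10 p among those called both as deposited and at equal length, and the 5 missing from each PladB library alone. The named windows are the 5 windows of 1 Mb with the highest percent lost among those with at least 20 regions of both DMSO libraries. The members, lists and rules were chosen with earlier results of these data known. Counting was tested on simulated data and against bedtools 2.31.1. The alternatives tried were equal list length, a fold of at least 6, a q-value of 1e-05 or below, peaks covering 50% of a region, summits extended by 100 bp to either side, regions of all 29 lists, all sequences, 1 library allowed against the pattern, the replicate number as a block, other summit limits, and leaving out each library. Software was scipy 1.17.1, pandas 2.3.3, numpy 2.4.6 and matplotlib 3.10.9 under Python 3.11.15.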

Additional observations from a re-analysis of the deposited data

How the results depend on the processing

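Of 125 recomputed values, 96 kept their direction and stayed on their side of the threshold or within their spread. At equal list length the lost regions numbered 1972 and the gained 1715, PladB replicate 1 lacked 4777 regions of both DMSO libraries and held 5680 found in neither, the mean Jaccard index with DMSO was 0.685 for PladB replicate 1 and 0.707 for PladB replicate 2, and the sets in other lines changed by -1.28 (lost) and -0.0636 (gained) points. At a fold of at least 6, 2073 regions were lost, 6515 were missing from PladB replicate 1, 5462 of PladB replicate 2 were in neither DMSO library, and the index of PladB replicate 2 was 0.699, as it was at a q-value of 1e-05 or below (0.699). Allowing 1 library against the pattern gave 25448 lost and 13908 gained regions. Summit windows gave 4317 regions of PladB replicate 1 in neither DMSO library and -1.24 points for the gained set (exact permutation p = 0.15). At a limit of 50 bp the excess of moved summits between treatments over that within them turned from 0.23 to -0.274 points. Leaving out 1 library gave 4762 to 11283 lost and 2599 to 8867 gained regions, a difference in list length of -15453.5 to 2160.5 peaks (2160.5 without PladB replicate 1), a difference between lines of -5680.5 to 11933.5 (-5680.5 without PladB replicate 2), an index of 0.656 to 0.668 for PladB replicate 1 and of 0.692 for PladB replicate 2, and changes of -7.61 to -4.39 points for the lost and -6.74 to -3.47 for the gained set. The lost and gained counts depend on the number of libraries that must hold or lack a peak, by construction. Same-numbered libraries did not deviate together over the regions (correlation -0.0117 in the WT-FOXA1 line). This does not settle whether they shared a culture or a preparation, which the labels do not give. With the replicate block the values of -7.22 points (lost) and -5.60 points (gained) had an exact permutation p of 0.0625, the smallest 32 arrangements allow, and list length had p = 1. Depth limits detection to sites with at least 6 reads at the summit.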

Other observations

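Lost regions were not gathered in a few domains. Of 1643 windows of 1 Mb with at least 20 regions of both DMSO libraries, 402 had 0 lost regions, and the median window lost 4%. The window with the highest share, chr1:244000001-245000000, lost 7 of 29 regions (24.1%), 1 of 21 at equal length, and 3 of the 26 regions held there by both DMSO libraries of the C258A-FOXA1 line were lost in that line. In chr5:66000001-67000000, 5 of 22 regions were lost, and 3 of 17 at equal length. In chr1:118000001-119000000, 5 of 23 were lost, and 1 of 16 at equal length. The windows chr3:130000001-131000000 and chr7:47000001-48000000 lost 5 of 23 and 7 of 33 regions, and 3 of 17 and 3 of 24 at equal length. With counts this small, the windows were chosen for their share and no test was made.

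In 28340 of the 58798 regions of all 4 libraries the summits of the replicates lay within 50 bp of each other under both treatments. In 335 of these (1.18%), the summits of both PladB libraries lay over 100 bp from those of both DMSO libraries, with no comparison made for pairs that cross treatments. These regions had a median width of 545 bp, against 436 bp for all the shared regions. Summits over 100 bp apart need a region wide enough to hold them, so the greater width follows in part from the choice. The width of the 28340 regions was not compared.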
